A study of Mus musculus with 661 samples.

Results

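Imprinted growth genes are genes read mainly from the copy inherited from one parent that set the size and growth of the fetus and of its organs. The 9 followed here were *H19*, *Dlk1*, *Meg3*, *Peg3*, *Mest*, *Plagl1*, *Ndn*, *Grb10* and *Cdkn1c*. They were taken by symbol, and all 9 were found among 45808 genes of the count table.

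The study compared bone marrow stroma of young and old C57BL/6 wild type mice of both sexes by RNA sequencing of single sorted cells. Ages ran from 6 to 12 weeks in the young group, and the old group began at 18 months and was mostly near 24. Each of the 661 samples was 1 cell, from 3 young and 4 old mice, and no label ties a cell to a mouse. The cells of one age and one sort gate were therefore treated as 1 sample, so the differences have no replicate check and no test was possible. All gates were negative for Ter119 and CD45. The endosteum gave MSC-S, mesenchymal cells positive for Sca-1 and CD51, with 59 young and 59 old cells. It also gave the osteoprogenitors, CD51-positive and negative for Sca-1 and LepR, split into PDGFRα-positive mOPr (26 young, 26 old) and PDGFRα-negative OPr (44 young, 29 old). Endosteal CD31-positive endothelial cells were named AEC (84 young, 82 old). The central marrow gave MSC-L, positive for PDGFRα and LepR (53 young, 58 old), and CD31-positive endothelial cells, named SEC (70 young, 71 old). The paper defines AEC by high and SEC by low Sca-1. It describes the sequenced marrow endothelial cells as mostly SEC by index sorting, and the endosteal ones as dominated by AEC. The groups named AEC and SEC here thus need not be pure Sca-1 subsets.

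At an imprinted locus, DNA methylation laid down in the egg or the sperm silences one parental copy, and neighbouring genes often share one control region. Several of these genes, such as *Cdkn1c* and *Grb10*, hold back growth, whereas partners such as *Igf2* promote it, and their expression falls in many organs after birth. The mice were inbred, so the parental copy that was read could not be seen in these data.

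Levels are in CPM, counts per 1000000 counts of nuclear genes, in the summed cells of a group, with exact Poisson 95% intervals. A cell was said to carry a gene at 10 CPM or more, and shares of cells have exact Clopper-Pearson 95% intervals. Both intervals cover counting error only, since reads amplified over 21 PCR cycles without molecular identifiers are not independent molecules. Total counts per cell ran from 58034 to 1503374 with a median of 425611, and the median of nuclear counts ran from 302201 in old SEC to 775426 in old OPr. Library numbers in the sample titles fall in 3 separate ranges, of 170, 303 and 188 cells. The labels do not say what a range stands for. SEC were all in the third range, which held no mesenchymal cell, so SEC and that range cannot be told apart in comparisons with mesenchymal cells.

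The osteoprogenitor gates differed between ages in markers of other cell types. Of 7 chondrocyte markers, 7 were at 1 CPM or more in young OPr, with a summed level of 40688 CPM led by *Col2a1* (23589 CPM). The summed level was 2566 CPM in old OPr, 9856 CPM in young mOPr and 725 CPM in old mOPr. Cartilage genes were thus highest in young OPr and lower in old than in young cells of both gates. Of 8 MSC-L markers, led by *Cxcl12*, all reached 1 CPM in both gates at both ages, and their summed level was 6328.5 CPM in young and 24199 CPM in old OPr and 1088 CPM in young and 22217 CPM in old mOPr. By the authors' clustering, 10 old and 3 young OPr, and 14 old and 2 young mOPr, lay in the MSC-L-like clusters. Of 15 hematopoietic markers, 15 reached 1 CPM in old OPr (summed level 11643 CPM, led by *S100a9*), against 4 in young OPr (34.1 CPM, *Cd52* at 0), and 8 old OPr carried at least 7 of them although the gate removes CD45-positive cells. Of 7 pericyte and smooth muscle markers, 6 in young and 7 in old OPr and 5 in young (*Rgs5* at 0) and 7 in old mOPr reached 1 CPM. Their summed level, led by *Cspg4* in young and *Acta2* in old cells, was 791 and 2616 CPM in young and old OPr and 512 and 2483.5 CPM in mOPr. Of 8 MSC-S markers, led by *Dcn*, 5 in young and 7 in old OPr (*Thy1* at 0) reached 1 CPM, with summed levels of 3825 and 1228 CPM. The part of these markers in the age differences was not tested. Age ratios of the genes tested in these gates, though not those of their neighbours and partners, are also given without the MSC-L-like cells and the cells with hematopoietic markers, a choice made after the values were seen, which left 11 old and 41 young OPr and 12 old and 24 young mOPr.

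Mesenchymal populations held more of most of these genes than endothelial populations. With the 4 mesenchymal and the 2 endothelial populations each weighted equally, 6 of 9 genes were at least 2-fold higher in mesenchymal cells of young mice, where 18.1% of 17348 genes tested were. These were *H19*, *Dlk1*, *Meg3*, *Peg3*, *Plagl1* and *Ndn*, and 1, *Mest*, was at least 2-fold lower (16.2% of all genes). *H19* and *Dlk1* held 0 and 9 counts in young endothelial cells and passed the filter below through mesenchymal cells alone. Higher was thus the only call open to them, and both also enter the median given below. In old mice the numbers were 5 higher (20.4% of all genes) and 1 lower (15.7%), *Dlk1* being at 0.533 and 1.38 CPM. There *H19* and *Meg3* held 3 and 32 counts in endothelial cells, with the same limit. The higher level of *H19* in old mesenchymal cells came from 1 cell described below, and in the first library range, which lacks that cell, its log2 ratio was 0.04. *Peg3* in old mice had a log2 ratio of 2.19, and of -0.51 in the first library range. The lower level of *Mest* rests on SEC, as given with that gene. A gene was tested when it had 100 counts or more and a count in 5 cells or more, and ratios are log2 of CPM with 1 CPM added. The median log2 ratio was 2.68 over the genes tested here and -0.05 over all genes in young mice, and 2.19 and 0.01 in old mice. *Grb10* and *Cdkn1c* stayed within 2-fold at both ages, but in the first library range, where AEC alone is the endothelial side, *Cdkn1c* had ratios of 2.49 in young and 1.85 in old mice. Those in the second range were -0.73 and 0.86. *Ndn* in old mice had 3.14 with all cells and 0.77 in the first range, and *Dlk1* in young mice 3.16 and, in the second range, 0.86.

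**Figure D1:**
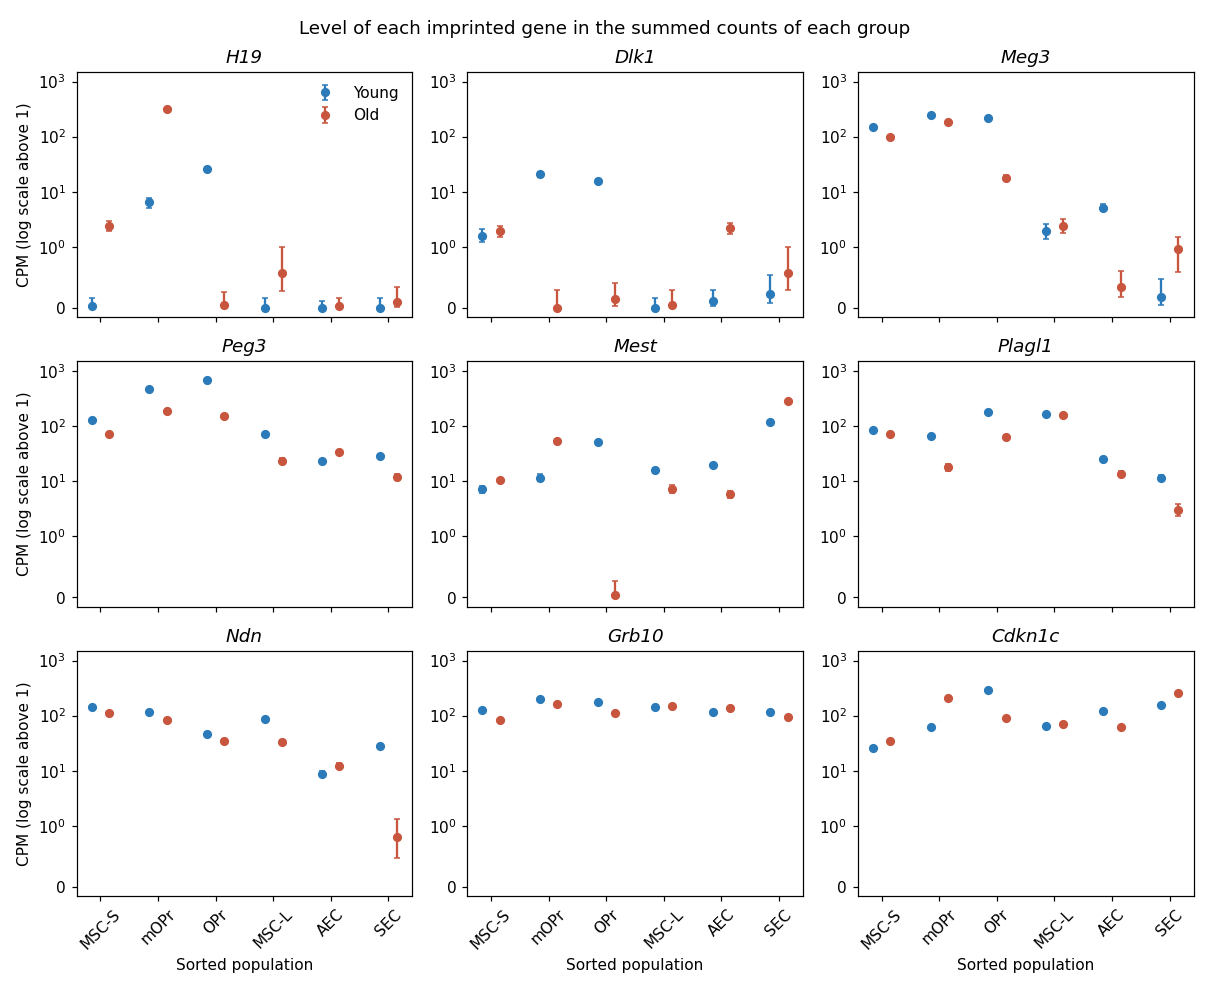
Level of each gene in CPM in the summed counts of each sorted population, young in blue and old in red, with exact Poisson 95% intervals (counting error only; the axis is linear below 1 CPM and logarithmic above it). *Meg3* and *Peg3* peak in young osteoprogenitors, *Mest* peaks in SEC (118.5 CPM young, 287 CPM old), and *Grb10* lies between 82.9 and 203 CPM in every group.

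Because longer transcripts gather more counts, the genes were set against each other per kilobase of merged exon. In young OPr, the level per kilobase was highest for *Cdkn1c* (145 CPM per kb), followed by *Peg3* (51.3 CPM per kb) and *Plagl1* (23.15 CPM per kb). In young MSC-S the highest level per kilobase was that of *Ndn* (38.1 CPM per kb), and in young SEC that of *Cdkn1c* (74.95 CPM per kb) before *Mest* (30.03 CPM per kb). *Cdkn1c* thus led in young OPr and young SEC, and *Ndn* in young MSC-S. *Dlk1* was the lowest of the genes per kilobase in young OPr (2.79 CPM per kb).

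*Meg3* and *Dlk1* lie in one imprinted domain of mouse chromosome 12 (GRCm38, chr12:109452823-109463336 for *Dlk1* and chr12:109541001-109571726 for *Meg3*, both on the plus strand). *Meg3* is a long noncoding RNA made from the maternal copy. Its level was 149.6 CPM (95% interval 146 to 154) in young MSC-S, 246 CPM (95% interval 238 to 254) in young mOPr and 216 CPM (95% interval 210.5 to 221) in young OPr. It was 1.93 CPM in young MSC-L, 5.135 CPM in young AEC and 0.182 CPM in young SEC. *Meg3* was thus high in the endosteal mesenchymal gates of young mice and low in marrow MSC-L and endothelium. Young MSC-S were 5.68 above young MSC-L on the log2 scale (counting interval without the added CPM 5.85 to 6.74), and old MSC-S 4.88 above old MSC-L. Within the first and the second library range, the young ratios were 7.77 and 4.46.

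Fewer old than young endosteal cells carried *Meg3*. The share was 16 of 26 cells (61.5%, 40.6 to 79.8%) in young mOPr and 4 of 26 cells (15.4%, 4.36 to 34.9%) in old mOPr. In OPr it was 24 of 44 cells (54.55%, 38.85 to 69.6%) when young and 2 of 29 cells (6.90%, 0.846 to 22.8%) when old. In MSC-S the carriers were 28 of 59 young and 16 of 59 old cells. The summed level differed less in mOPr (246 CPM young, 186 CPM old), where 1 old cell held 55.1% of the counts and the level without it was 88.4 CPM. The library ranges went opposite ways in mOPr, from 407 CPM in young to 6.08 CPM in old cells in the first and from 99 to 297 CPM in the second, while carriers were fewer in old cells in both (9 of 15 and 1 of 13, 7 of 11 and 3 of 13). Cells that carried *Meg3* ran from 67.75 to 1802 CPM in young mOPr (median 159 CPM) and from 57.7 to 1842 CPM in old mOPr (median 792 CPM). In old OPr 1 cell held 61.1% of the *Meg3* counts, and the level without it was 7.28 CPM. With all cells the level there was 17.9 CPM, a log2 ratio of -3.52 (-3.74 to -3.44 without the added CPM), and -2.01 without the MSC-L-like cells and those with hematopoietic markers. In mOPr the ratio without these cells was 0.60, that is, no longer lower in old cells. In the OPr-like clusters, 29 of 55 young and 9 of 39 old cells carried *Meg3*, and the level was 228 CPM in young and 151 CPM in old cells, a log2 ratio of -0.59. The level in OPr was thus past 2-fold lower in the old gate and within 2-fold in the clusters.

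*Rian* and *Rtl1*, further genes of the *Dlk1* and *Meg3* domain, went with *Meg3* from cell to cell. *Rian*, another maternal noncoding RNA, was at 169.9 CPM in young MSC-S, 159 CPM in young mOPr and 102 CPM in young OPr, and below 5 CPM in MSC-L, AEC and SEC of both ages. Of 72 mesenchymal cells with *Rian*, 67 also carried *Meg3* (93.1%), and these were 71.3% of the 94 cells with *Meg3*. *Rtl1*, a protein-coding gene of retrotransposon origin, was carried by 35 mesenchymal cells, and each of them carried *Meg3*. In old over young OPr, *Rian* had a log2 ratio of -3.15 and *Rtl1* one of -3.91. In the OPr-like clusters young and old cells were closer, at 81.2 and 57.9 CPM of *Rian* and 26.7 and 24.4 CPM of *Rtl1*. *Rtl1* is copied from both strands at this locus, and the counting did not use strand, so its sense and antisense transcripts cannot be told apart.

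*Dlk1* encodes a membrane protein with EGF repeats that restrains fat cell differentiation and is made from the paternal copy. It was scarce. The levels were 20.6 CPM in young mOPr and 15.8 CPM in young OPr, and at most 2.18 CPM in any other group. Few cells made up these sums, since 3 of 26 young mOPr and 3 of 44 young OPr carried *Dlk1*, and 1 cell held 93.95% of the counts in young OPr. Without that cell the level there was 0.9975 CPM. Old OPr held 3 counts, and the log2 ratio of old over young was -3.88 (-9.10 to -5.26 without the added CPM) with all cells and -0.93 without the highest cell on each side. No count was found in 26 old mOPr (interval of the share 0 to 13.2%). Of 11 mesenchymal cells with *Dlk1*, 9 also carried *Meg3*, which is 9.57% of the cells with *Meg3*.

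*H19* is a maternal noncoding RNA that lies beside *Igf2* on chromosome 7 (chr7:142575529-142578143, minus strand) and is abundant in fetal tissue. In young OPr it reached 25.8 CPM (95% interval 23.97 to 27.7), from 9 of 44 cells (20.45%, 9.80 to 35.3%), and the carriers ran from 14.3 to 314 CPM with a median of 63.1 CPM. The highest of them held 52.4% of the counts, and the level without it was 12.8 CPM. Of 29 old OPr 0 carried it (interval of the share 0 to 11.9%), and they held 1 count in all against 756 in young OPr, a log2 ratio of -4.68 (-14.41 to -6.62 without the added CPM). *H19* was thus carried by a minority of young OPr. The highest summed level, 313 CPM in old mOPr, came from 1 cell. That cell, of cluster M5, had 4638 CPM of *H19* and held 99.9% of the counts of its group, and without it the level was 0.258 CPM. The same cell had 2048 CPM of *Peg3*, 1034 CPM of *Cdkn1c*, 744.5 CPM of *Igf2* and 592.5 CPM of *Meg3*. It carried 0 of 15 hematopoietic markers and 10 of 12 mesenchymal ones. With that cell counted among the OPr-like clusters, the log2 ratio of old over young there turned to 2.95.

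*Igf2*, the growth factor gene next to *H19*, was highest in AEC. Its level was 419.5 CPM in young AEC and 547 CPM in old AEC, where 31 of 84 and 39 of 82 cells carried it. *H19* had 0 counts in young and 1 in old AEC. In all, 153 cells carried *Igf2* and 14 carried *H19*. The 7 cells with both were 50% of those with *H19* and 4.575% of those with *Igf2*. The pair was thus seen together in part of the cells with *H19* and in few of those with *Igf2*. Of the merged exon bases of *Igf2*, 64.5% lie on exons of *Gm49394* or *Igf2os*, and how reads there were counted is not stated.

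*Peg3* encodes a zinc finger protein made from the paternal copy and lies on chromosome 7 (chr7:6703892-6730431, minus strand). It was highest in young osteoprogenitors, at 683 CPM (95% interval 673.5 to 692.5) in OPr and 463 CPM (95% interval 452 to 474) in mOPr. In the other young groups it was 131 CPM in MSC-S, 72.04 CPM in MSC-L, 23.2 CPM in AEC and 28.8 CPM in SEC. The young groups thus ran from OPr and mOPr through MSC-S and MSC-L to endothelium. Within the library ranges the osteoprogenitors were again highest, but young MSC-L, at 21.6 CPM, were below young AEC (40.8 CPM) in the first range and, at 100.3 CPM, above young MSC-S (86.7 CPM) in the second. In old mice the levels were 152.5 CPM in OPr, 188.5 CPM in mOPr, 71.1 CPM in MSC-S, 23.6 CPM in MSC-L, 34.1 CPM in AEC and 12.01 CPM in SEC. Single cells held 42.5% of the counts in young and 73.3% in old mOPr, and 46.9% in young and 82% in old MSC-L. Without these cells the young and old levels were 277 and 53.9 CPM in mOPr and 39.4 and 4.34 CPM in MSC-L.

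With all library ranges pooled, the share of cells with *Peg3* was lower in old than in young cells of each of the 6 populations. In AEC of the third range alone the share was higher in old cells, with 3 of 24 young and 4 of 23 old carriers. In mOPr it was 17 of 26 cells (65.4%, 44.3 to 82.8%) when young and 3 of 26 cells (11.5%, 2.45 to 30.15%) when old. In OPr it was 27 of 44 cells (61.4%, 45.5 to 75.6%) when young and 7 of 29 cells (24.1%, 10.3 to 43.5%) when old. Young and old carriers were 26 of 59 and 13 of 59 in MSC-S, 14 of 53 and 5 of 58 in MSC-L, 12 of 84 and 6 of 82 in AEC and 12 of 70 and 3 of 71 in SEC. The level went the same way except in AEC, where 1 old cell held 78.9% of the counts and the level without it was 7.26 CPM. The log2 ratio of old over young was -2.16 in OPr (-2.22 to -2.11 without the added CPM), -1.57 in MSC-L (-1.76 to -1.46) and -1.29 in mOPr (-1.36 to -1.23). Without the MSC-L-like cells and those with hematopoietic markers it was -0.94 in OPr and -0.38 in mOPr, less than 2-fold in both. In the first and second library ranges the ratio was -3.09 and -1.72 in OPr, -1.77 and -1.23 in mOPr and -0.98 and -1.67 in MSC-L. With the authors' clusters in place of the gates it was -1.54 in OPr-like, -0.71 in MSC-L-like and -0.69 in SEC-like cells, within 2-fold in the last 2.

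**Figure D2:**
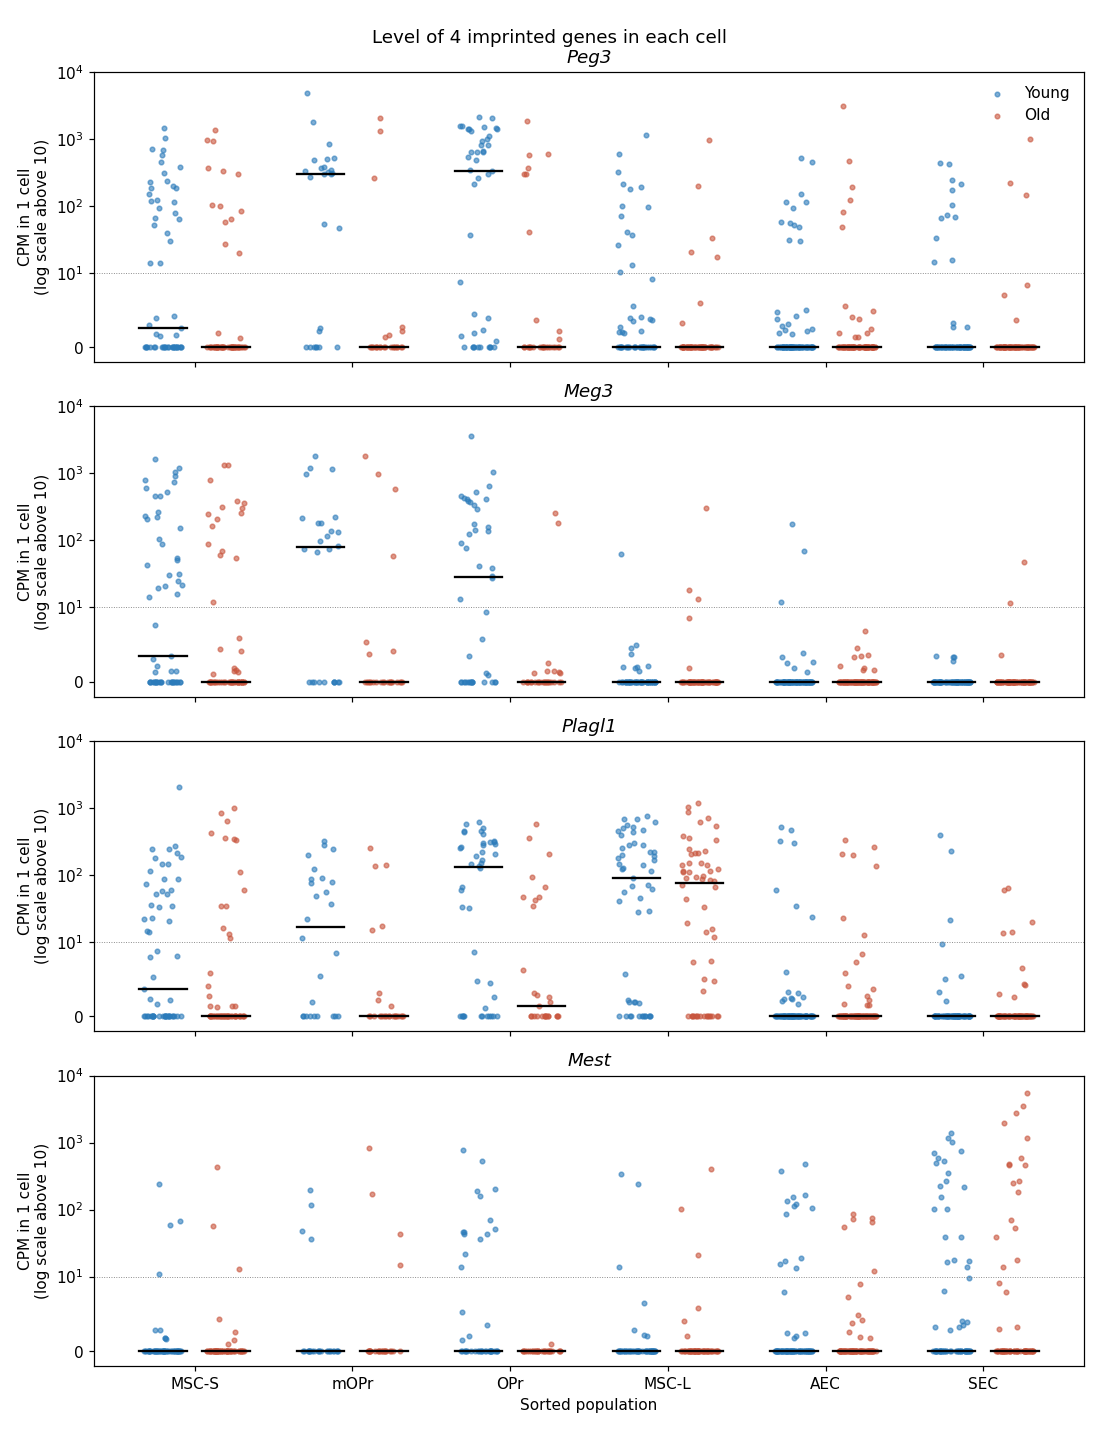
Level of *Peg3*, *Meg3*, *Plagl1* and *Mest* in each cell, in CPM (linear below 10 CPM and logarithmic above it; the dotted line is at 10 CPM), by sorted population, young in blue and old in red, with the median of each group as a black line. The median of *Peg3* is 337 CPM in young OPr and 0 in old OPr, and that of *Plagl1* is 89.3 CPM in young and 76.6 CPM in old MSC-L.

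*Plagl1*, also named Zac1, encodes a zinc finger transcription factor that can halt the cell cycle and regulates other imprinted genes. The levels were 181 CPM (95% interval 176 to 186) in young OPr, 167 CPM (95% interval 162 to 172) in young MSC-L and 158 CPM (95% interval 153 to 164) in old MSC-L. In old OPr it was 64.55 CPM, in young and old MSC-S 85.1 and 72.9 CPM (42.3 and 57.15 CPM without the highest cell of each age, of which the young one held 51.3% of the counts), and in young and old mOPr 65.5 and 17.8 CPM. Single cells held 47.6% of the counts in old OPr and 49.55% in old mOPr. Without the highest cell of each age, young and old levels were 168 and 35.7 CPM in OPr and 52.6 and 9.29 CPM in mOPr. Endothelial levels ran from 3.04 CPM in old SEC to 25.65 CPM in young AEC. The level in MSC-L was thus within 2-fold between ages, while old cells of both osteoprogenitor gates had less. Carriers were 35 of 53 young and 37 of 58 old MSC-L, 27 of 44 young and 9 of 29 old OPr, and 14 of 26 young and 5 of 26 old mOPr. The log2 ratio of old over young was -0.08 in MSC-L (-0.15 to -0.01 without the added CPM), -1.47 in OPr (-1.57 to -1.40) and -1.82 in mOPr (-2.10 to -1.67). In the first and second library ranges it was -0.93 and -1.96 in OPr and -0.26 and -4.74 in mOPr, past 2-fold in the second range only.

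Without the MSC-L-like cells and those with hematopoietic markers, the difference in both osteoprogenitor gates was larger. Old OPr and old mOPr then had 21.5 and 0.169 CPM of *Plagl1*, against 167 and 67.1 CPM in the young gates, and the log2 ratios were -2.90 and -5.86. In the OPr-like clusters the level was 206 CPM in young and 12.2 CPM in old cells, with 34 of 55 and 6 of 39 carriers. Most of the *Plagl1* in the old osteoprogenitor gates was thus in cells of MSC-L-like clusters. The OPr-like cluster M3 held mostly young cells: of 16 cells in M3, 1 was old, while of 65 in M5, 34 were.

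*Ndn* encodes necdin, a growth-suppressing protein of the MAGE family made from the paternal copy. Its highest levels were 141 CPM (95% interval 137 to 145) in young MSC-S and 114 CPM (95% interval 109 to 119.7) in young mOPr, and old MSC-S had 110.3 CPM. It was 86.6 CPM in young and 33.3 CPM in old MSC-L, and 46.9 CPM in young and 34.4 CPM in old OPr. Between ages the endosteal mesenchymal gates differed by less than 2-fold, with log2 ratios of -0.35 in MSC-S, -0.42 in mOPr and -0.43 in OPr. The library ranges disagreed in each of these gates, the first and second giving -1.51 and 0.18 in MSC-S, 0.20 and -1.13 in mOPr and 0.35 and -1.49 in OPr. In MSC-L the ratio was -1.35 (-1.51 to -1.25 without the added CPM), and -1.69 and -1.23 in the first and second library ranges, but -0.76 in the MSC-L-like clusters, within 2-fold. SEC had 28 CPM when young and 0.820 CPM when old, from 6 of 70 and 2 of 71 carriers, and 1 young cell held 57.3% of the young counts.

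*Mest*, which encodes a protein of the alpha/beta hydrolase fold family and is made from the paternal copy, had its highest levels in endothelium of the marrow. In SEC it was 118.5 CPM (95% interval 114 to 123) when young and 287 CPM (95% interval 279 to 294) when old. It was 50.8 CPM in young OPr, 54.1 CPM in old mOPr, where 1 cell held 86.5% of the counts, and at most 19.9 CPM in the other groups. Within the third library range, the one that held SEC, young AEC had 31.8 CPM and old AEC 3.77 CPM. *Mest* was thus higher in SEC than in AEC, also inside one range. With AEC alone as the endothelial side, the first range gave a log2 ratio of mesenchymal over endothelial of 0.29 in young mice and 1.56 in old mice, so the direction of that comparison depends on SEC. Carriers in SEC were 21 of 70 cells (30%, 19.6 to 42.1%) in young and 17 of 71 cells (23.9%, 14.6 to 35.5%) in old, so the higher level of old SEC did not come with more carriers. The carriers ran from 13.9 to 1406.5 CPM in young SEC (median 221 CPM) and from 14.1 to 5482 CPM in old SEC (median 460.1 CPM). The log2 ratio of old over young was 1.27 in SEC (1.21 to 1.34 without the added CPM) and 1.09 when 1 top cell per age was left out. Other markers differed between young and old SEC as well. Of 6 arterial markers, led by *Dll4*, 4 in young and 6 in old SEC reached 1 CPM, with summed levels of 247.5 and 901 CPM, and cells with at least 3 of them were 2 and 13. Of 15 hematopoietic markers, 8 in young SEC (led by *Lcp1*) and 14 in old SEC (led by *Plek*) did so, with 191 and 604 CPM. Of 7 pericyte and smooth muscle markers, 5 in young SEC (led by *Notch3*, with *Cspg4* at 0) and 6 in old SEC (led by *Rgs5*) did, with 92.7 and 492 CPM. The ratio of *Mest* was 1.30 without the SEC that carried at least 7 hematopoietic markers and 1.73 in the SEC-like cluster. In OPr 14 of 44 young cells carried it, while 29 old cells held 1 count. The OPr-like clusters, which include mOPr cells, had 54.2 CPM in young and 34.03 CPM in old cells, a log2 ratio of -0.66. Of the merged exon bases of *Mest*, 23.1% lie on exons of *Copg2* on the other strand. Unstranded reads there cannot be assigned to one gene, and how they were counted is not stated.

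*Grb10* encodes an adaptor that dampens insulin and IGF receptor signaling. Over all groups it was the most widely carried of these genes. Its levels ran from 82.9 CPM (95% interval 80.1 to 85.8) in old MSC-S to 203 CPM (95% interval 196 to 210.4) in young mOPr, and its carriers from 12 of 29 cells (41.4%, 23.5 to 61.1%) in old OPr to 21 of 26 cells (80.8%, 60.65 to 93.45%) in young mOPr. MSC-L and AEC had 145 and 116 CPM when young and 146 and 139 CPM when old. The log2 ratio of old over young lay between -0.69 in OPr and 0.26 in AEC, and no population passed 2-fold with all cells. Without the highest cell of each age, OPr had 167 CPM when young and 71 CPM when old, past 2-fold lower. Single library ranges also passed 2-fold, with 1.94 in AEC of the third range (51.3 CPM young, 200.4 CPM old) and -1.02 in mOPr of the first, against 0.70 in mOPr of the second.

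*Cdkn1c* encodes the cyclin-dependent kinase inhibitor p57, made from the maternal copy (chr7:143458339-143461050, minus strand). It was found in both mesenchymal and endothelial cells. Its levels were 295 CPM (95% interval 289 to 301) in young OPr, 90.9 CPM in old OPr, 61.7 CPM in young mOPr and 211 CPM in old mOPr. Single cells held 36.6% of the counts in young OPr, 39.2% in old OPr and 44.3% in old mOPr. Without these cells the levels were 192, 57.1 and 124 CPM. MSC-L had 65.55 and 69.5 CPM and MSC-S 26.1 and 34.1 CPM, young and old. In endothelium it was 153 CPM in young and 252 CPM in old SEC, and 121 CPM in young and 62.05 CPM in old AEC. *Cdkn1c* was thus lowest in MSC-S at both ages with all cells. In the first library range, young MSC-L (20.1 CPM) and young AEC (20.4 CPM) were below young MSC-S (32.4 CPM), and old AEC (13.9 CPM) below old MSC-S (49.8 CPM). In OPr the log2 ratio of old over young was -1.69 (-1.77 to -1.63 without the added CPM), -0.83 without the MSC-L-like cells and those with hematopoietic markers and -0.69 in the OPr-like clusters. The share of cells did not follow the level in SEC, where carriers were 50 of 70 cells (71.4%, 59.4 to 81.6%) in young and 38 of 71 cells (53.5%, 41.3 to 65.45%) in old cells while 1 old cell held 30.7% of the counts. In mOPr 11 of 26 cells carried it at each age, and the log2 ratio of 1.76 in the pooled cells was -0.34 in the first library range and 2.50 in the second. *Cdkn1c* shares 30.7% of its merged exon bases with exons of *Gm44732* on the other strand.

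*Kcnq1ot1*, the paternal noncoding RNA of the *Cdkn1c* domain, was present in every group. Its level ran from 100.4 CPM in young MSC-S to 396.5 CPM in young OPr, and SEC had 249 CPM when young and 341 CPM when old. *Kcnq1*, a potassium channel gene in the same domain, was below 1 CPM in every mesenchymal group and at 47.3 CPM in young AEC and 91.6 CPM in young SEC. Of 275 cells with *Cdkn1c*, 68.4% carried *Kcnq1ot1*, and these were 46.8% of the 402 cells with *Kcnq1ot1*. *Kcnq1ot1* was thus the more widely carried of the pair. *Kcnq1ot1* runs antisense to *Kcnq1*, and without strand their reads cannot be told apart where they overlap.

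The genes past 2-fold between ages were counted in each population. Of 9 genes tested in OPr, 7 lower (19.6% of all genes) and 0 higher (25.6%) were past 2-fold in old cells, the lower ones being *H19*, *Dlk1*, *Meg3*, *Peg3*, *Mest*, *Plagl1* and *Cdkn1c*. Of these, *H19*, *Dlk1* and *Mest* held 1, 3 and 1 counts in old OPr and passed the filter through young cells alone, so that lower was the only call open to them. In mOPr, of 7 tested, 2 lower (19.8% of all genes) and 2 higher (24.7%) were, namely *Peg3* and *Plagl1* lower and *Mest* and *Cdkn1c* higher, a pair of higher levels that was not seen in the first library range (-1.92 and -0.34 on the log2 scale). In MSC-S, of 8 tested, 0 lower (11.1% of all genes) and 0 higher (8.65%) passed 2-fold. In MSC-L, of 6 tested, 3 lower (11.5% of all genes) and 0 higher (13.9%) did, namely *Peg3*, *Ndn* and *Mest*, the last with a ratio of 3.13 in the first library range. Hematopoietic markers differed there too, with 5 of 15 at 1 CPM or more in young MSC-L (37.5 CPM in sum, led by *Coro1a*, *Cd52* among those at 0) and 9 in old MSC-L (289 CPM, led by *Plek*), and their part was not tested. In AEC, of 7 tested, 2 lower (11.7% of all genes) and 0 higher (9.33%) did, namely *Meg3* and *Mest*, both at most 19.9 CPM. *Meg3* held 12 counts in old AEC and passed the filter through young cells alone, so lower was the only call open to it. Sinusoidal markers, led by *Il6st*, were lower in old AEC too, with 6 of 6 at 1 CPM or more in young (1783 CPM in sum) and 5 in old AEC (1105 CPM), and their part was not tested. The lower count in AEC was 1, 5 and 1 in library ranges 1, 2 and 3 (23.4%, 14.7% and 19.2% of all genes). Past 2-fold higher in old AEC were *Peg3* and *Ndn* in range 1 (16.3% of all genes). In range 3 they were *Peg3*, *Plagl1* and *Grb10* (17.6%). In SEC, of 6 tested, 3 lower (7.56% of all genes) and 1 higher (13.1%) did, namely *Peg3*, *Plagl1* and *Ndn* lower and *Mest* higher. *Plagl1* and *Ndn* held 63 and 17 counts in old SEC and passed the filter through young cells alone. Lower was thus the only call open to them. The lower count in SEC was 1 (7.96% of all genes) without the cells with mesenchymal markers described with the clusters. The lower count was 4 in OPr (32.8% of all genes) and 4 in mOPr (26.6%) in the first library range, and 7 (18.9%) and 3 (23%) in the second. The genes not tested were *H19* in all but OPr, *Dlk1* in mOPr, MSC-L, AEC and SEC, and *Meg3* in MSC-L and SEC.

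The median log2 ratio of old over young over the genes tested was below that of all genes in each of the 6 populations. It was -2.16 against 0.14 in OPr, -0.40 against 0.11 in mOPr and -0.29 against -0.06 in MSC-S. It was -0.55 against 0.01 in MSC-L, -0.85 against -0.03 in AEC and -0.74 against 0.05 in SEC. Genes that passed the filter through young cells alone are included, namely *H19*, *Dlk1* and *Mest* in OPr and *Meg3* in AEC. In SEC these are *Plagl1* and *Ndn*. The other ratios in SEC were -1.20 for *Peg3*, -0.28 for *Grb10*, 0.72 for *Cdkn1c* and 1.27 for *Mest*. The place of the SEC median below that of all genes thus rests on *Plagl1* and *Ndn*. These are descriptions of 1 sample on each side.

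The authors' clusters, taken in place of the gates, changed several of these counts. In OPr-like cells 3, *Dlk1*, *Peg3* and *Plagl1*, were lower (22.9% of all genes) and 1, *H19*, was higher (22.5%) in old cells. In MSC-S-like cells 2 were lower (13.2% of all genes), *Dlk1* (7.32 CPM young, 1.28 CPM old) and *Peg3* (217 and 72.8 CPM). In MSC-L-like cells 1, *Mest*, was lower (9.22% of all genes). In AEC-like cells 2, *Peg3* and *Cdkn1c*, were lower (11.3%) in place of *Meg3* and *Mest*, and in SEC-like cells 1, *Ndn*, was lower (10.4%) and 1, *Mest*, higher (11.4%). *Dlk1* held 31 and 48 counts in old OPr-like and MSC-S-like cells, and *Ndn* 2 in old SEC-like cells. Both passed the filter there through young cells alone, so that lower was the only call open to them. The calls thus depend in part on whether cells are grouped by gate or by cluster.

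Without the MSC-L-like cells and those with hematopoietic markers, 5 genes were lower (28.1% of all genes) and 0 higher (23.7%) in old OPr, and 1 lower (32.6%) and 2 higher (21.8%) in old mOPr. Among the lower ones in OPr, *H19*, *Dlk1* and *Mest* held 1, 3 and 1 counts in all old OPr. Lower was thus the only call open to them. The lower call in mOPr, *Plagl1*, likewise rests on young cells, given its old level above. The ratios not given above were, in OPr, -4.90 for *H19*, -3.83 for *Dlk1*, -5.85 for *Mest*, -0.78 for *Ndn* and -0.08 for *Grb10*. In mOPr they were 3.23 for *Mest*, 2.50 for *Cdkn1c*, -0.08 for *Ndn* and -0.06 for *Grb10*.

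Endosteal MSC-S were set against marrow MSC-L at each age. In young mice 1 of 7 genes tested, *Meg3*, was at least 2-fold higher in MSC-S (16.8% of all genes) and 2, *Mest* and *Cdkn1c*, were lower (28.8%). In old mice 4 of 8, *H19*, *Meg3*, *Peg3* and *Ndn*, were higher (16.2%) and 2, *Plagl1* and *Cdkn1c*, lower (32.8%). *H19* was there carried by 1 of 59 old MSC-S. In the second library range, old *Peg3* (0.88) and *Plagl1* (-0.63) were within 2-fold, while *Mest* (1.60) and *Grb10* (-1.29) passed it. With the mean of each cell's CPM, old *H19* (0.43) and *Cdkn1c* (-0.55) were within 2-fold. In young MSC-L 1 cell held 47.7% of the *Cdkn1c* counts, and without the highest cell on each side the levels were 23.5 CPM in MSC-S and 35.02 CPM in MSC-L, within 2-fold. In the first library range, young *Mest* and *Cdkn1c* had ratios of 1.36 and 0.66, that is, higher in MSC-S. There *Peg3* (3.24) and *Ndn* (1.42) were past 2-fold higher in young MSC-S beside *Meg3*, *Plagl1* was past 2-fold lower (-2.41, against -0.96 with all cells), and *Cdkn1c* in old mice had -0.14, against -1.01 with all cells. *Meg3* was past 2-fold higher in MSC-S at both ages. It held 44 and 47 counts in young and old MSC-L and passed the filter through MSC-S alone. Higher was thus the only call open to it.

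**Figure D3:**
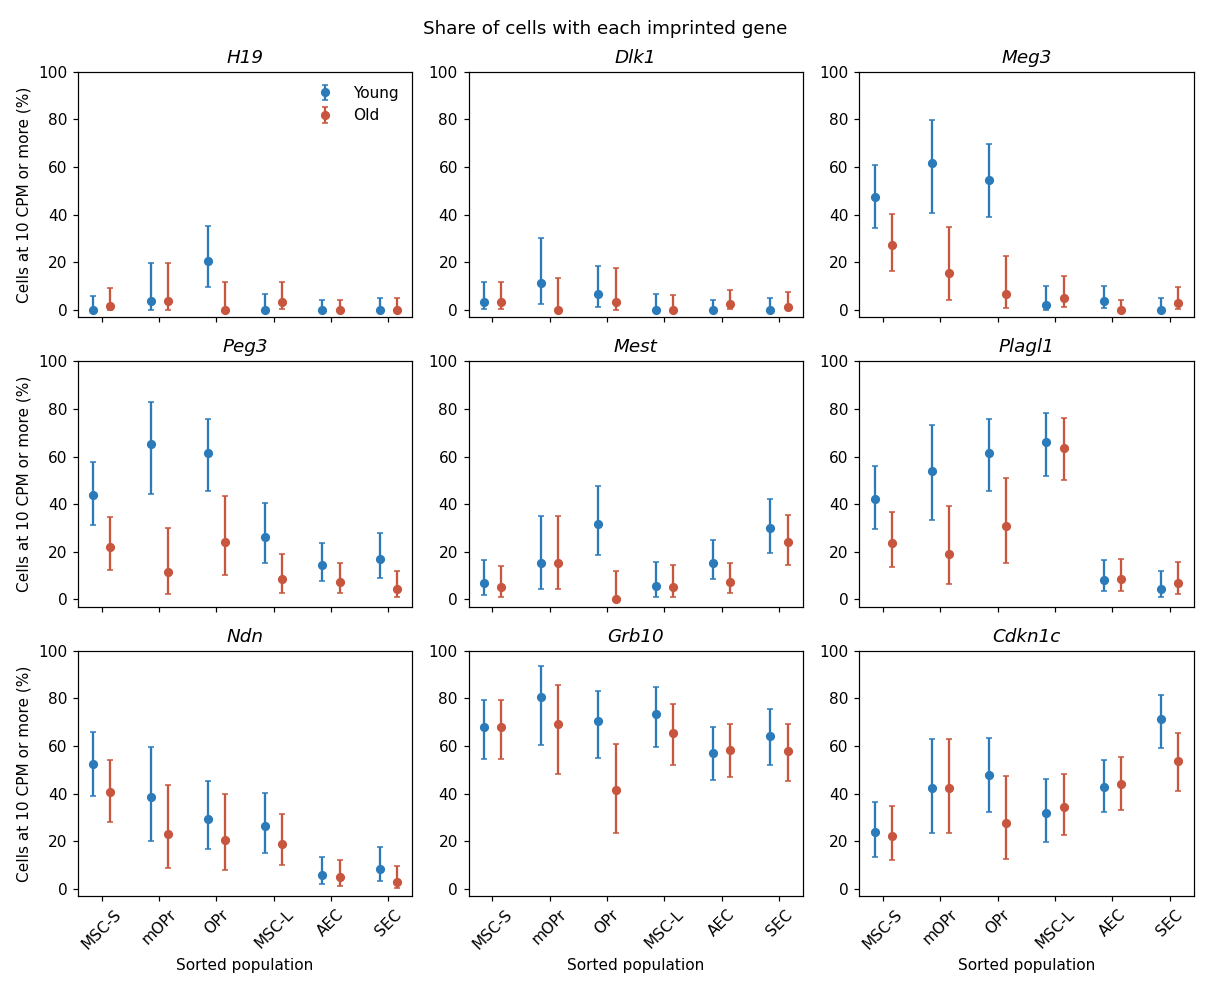
Share of cells, in percent, that carried each gene at 10 CPM or more in each sorted population, young in blue and old in red, with exact Clopper-Pearson 95% intervals (counting error only). With all library ranges pooled, *Peg3* is lower in old cells of all 6 populations. *Meg3* is carried almost only by MSC-S, mOPr and OPr, and *Grb10* by 41.4% to 80.8% of cells.

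The authors' clusters, which were drawn from all genes of these cells, place the genes more finely and are given as a description. *Peg3*, itself a guide gene of the mesenchymal clustering, was at 862 CPM in M4, 693.5 CPM in M3, 439 CPM in M15 and 359 CPM in M5, and at 10.85 CPM in M16. *Meg3* was at 441 CPM in M4, 349 CPM in M9 and 252 CPM in M15, and at 0.121 CPM in M16 with 0 of 36 carriers. Both were thus high in osteoprogenitor-like and several MSC-S-like clusters and low in M16, an MSC-S-like cluster with cells of both ages (21 of 36 old). *Cdkn1c* was also low in M16 (0.7635 CPM) while *Grb10* was not (92.99 CPM, 29 of 36 carriers). M3, an OPr-like cluster, had the most *Cdkn1c* (527.5 CPM), *Mest* (113 CPM) and *Plagl1* (269 CPM) among mesenchymal clusters of at least 5 cells. *H19* was carried by 6 of 16 cells there. Among the same clusters *Ndn* was highest in M7 (271 CPM), an MSC-S-like cluster with 13.55 CPM of *Plagl1*.

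Among endothelial clusters, *Mest* was highest in E7, the SEC-like cluster, at 270 CPM with 37 of 105 carriers, against 7.24 CPM in E3 and 7.53 CPM in E4, the AEC-like clusters. *Cdkn1c* was highest in E6, at 503 CPM, and *Kcnq1ot1* there was at 560.1 CPM. E7 and E5 had 160.2 and 179.9 CPM of *Cdkn1c*, and E3 and E4 38.5 and 86.4 CPM. *Plagl1* was at 124 CPM in E2, at 93.8 CPM in E1, and below 20 CPM in E3 to E7. *Meg3* among endothelial clusters was likewise highest in E2, at 43.6 CPM with 3 of 8 carriers. Without the SEC that carried at least 7 of 12 mesenchymal markers (10 young, 6 old) the log2 ratio of *Plagl1* in SEC, old over young, turned from -1.62 to 0.90.

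The number of these genes that each cell carried was counted. Young OPr carried a mean of 3.84 of the 9 genes and young mOPr 3.73, against 1.55 in old OPr and 2 in old mOPr. At least 4 were carried by 24 of 44 young OPr (54.55%, 38.85 to 69.6%) and 3 of 29 old OPr (10.3%, 2.19 to 27.35%). In the other populations 13 young and 5 old mOPr, 16 young and 8 old MSC-S, 9 young and 4 old MSC-L did so. Cells with many of these genes were thus most frequent among the young osteoprogenitor gates, and 1 young OPr carried all 9. The old gates held more cells of other types. Neither MSC-L-like nor with hematopoietic markers were 11 of 29 old and 41 of 44 young OPr, and 12 of 26 old and 24 of 26 young mOPr. The part of the remaining cells in these shares was not tested. Depth differed between ages as well, with median nuclear counts of 686077 in young and 775426 in old OPr, 516983.5 and 444242 in mOPr and 463538 and 352562 in MSC-L, and its part in these shares was not tested. In endothelium 2 young and 1 old AEC and 5 young and 2 old SEC carried at least 4.

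Across the 44 young OPr, Spearman correlations on log2 CPM were taken between pairs of these genes without *H19* and *Dlk1*. The highest was 0.56, for *Mest* with *Grb10*, followed by 0.47 for *Peg3* with *Ndn*. *Ndn* in young OPr was nearly nested in *Peg3*. Of 13 young OPr with *Ndn*, 12 carried *Peg3*, which are 44.4% of the 27 with *Peg3*. This was not seen in young MSC-S, where 12 of 31 cells with *Ndn* carried *Peg3* and the Spearman correlation was -0.198. Of 21 young OPr with *Cdkn1c*, 17 carried *Plagl1*, and these were 62.96% of the 27 with *Plagl1*. In endothelium *Plagl1* was scarce, with 22 of 307 cells carrying it. There 9 of 160 cells with *Cdkn1c* carried *Plagl1*, and these were 40.9% of the cells with *Plagl1*. Cells share depth and gate, so these values are descriptions.

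Further imprinted genes were counted in the same way in OPr, where 19.6% of all genes were at least 2-fold lower and 25.6% higher in old cells. Of 11 further genes at the same loci tested there, 8 were at least 2-fold lower in old cells and 0 higher, with a median log2 ratio of -1.18. The lower ones were *Rian*, *Mirg*, *Rtl1*, *Dio3*, *Zim1*, *Snrpn*, *Kcnq1ot1* and *Phlda2*. All but *Rian* and *Kcnq1ot1* held fewer than 100 counts in old OPr, from 0 for *Zim1* to 67 for *Phlda2*, and passed the filter only with the counts of young cells, so their number is no measure of how often such genes are lower. Of 20 imprinted genes of other loci, 5 were lower and 6 higher, with a median of 0.09. All genes had a median of 0.14. Among those of other loci, *Zdbf2* had 100.4 CPM in young and 0.281 CPM in old OPr, *Gnas* 30.3 and 11.5 CPM, and *Nnat* 2.76 and 15.9 CPM.

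The same lists were counted in the other populations. In MSC-S, where 11.1% of all genes were lower and 8.65% higher in old cells, 2 of 9 genes at the same loci were lower and 2 higher, and of 21 at other loci 2 and 1. In mOPr, where 19.8% of all genes were lower and 24.7% higher in old cells, 2 of 7 genes at the same loci were lower and 0 higher, and of 15 at other loci 0 and 5. In MSC-L, where 11.5% of all genes were lower and 13.9% higher in old cells, 2 of 6 genes at the same loci were lower and 1 higher, and of 17 at other loci 1 and 1. These are small counts in each gate. In AEC, where 11.7% of all genes were lower and 9.33% higher in old cells, 0 of 8 genes at the same loci were lower and 1 higher, and of 18 at other loci 1 and 2. In SEC, where 7.56% of all genes were lower and 13.1% higher in old cells, 1 of 8 genes at the same loci were lower and 1 higher, and of 16 at other loci 3 and 1. *Peg10*, a gene of retrotransposon origin, had 0.516 CPM in young and 34.04 CPM in old AEC, where 7 of 82 cells carried it and 1 cell held 54.1% of the counts.

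Growth pathway genes, among them receptors, cyclins and inhibitors, were also followed. Of 22 tested in OPr, 4 were lower (19.6% of all genes) and 4 higher (25.6%) in old cells. Of 19 in mOPr, 1 was lower (19.8% of all genes) and 7 were higher (24.7%). Among the higher ones, *Igf1* had 153 CPM in young and 382 CPM in old mOPr, with 5 and 19 of 26 carriers. MSC-L had 284 CPM of it when young and 351 CPM when old, and 2 young and 14 old mOPr lay in MSC-L-like clusters, whose part was not tested. *Ccnd1*, a cyclin gene, had 8.23 and 30.8 CPM, but its carriers were 4 young and 2 old cells and 1 old cell held 79.7% of the counts. *Igf1r*, the receptor that *Grb10* restrains, was present in every group, with levels from 62.15 CPM in old MSC-S to 289.8 CPM in young mOPr. Of the other genes of the inhibitor family of *Cdkn1c*, *Cdkn1a* had 934 CPM in young AEC and 29.2 CPM in young MSC-L, and *Cdkn1b* lay between 19.5 CPM in young SEC and 57.7 CPM in young mOPr. Cell cycle genes were mostly carried by few cells. Of 10 tested in MSC-S, 5 were lower (11.1% of all genes) and 1 higher (8.65%) in old cells, and 1 young cell held 85.9% of the *Mki67* counts. Of 8 in AEC, 6 were lower (11.7%) and 0 higher (9.33%), but single young cells held 68.6% of the counts of *Mki67*, 91.5% of *Top2a*, 90.65% of *Cenpf* and 93.97% of *Aurkb*, and the carriers of *Mki67* were 15 young and 13 old cells. Of 7 in MSC-L, 0 were lower (11.5%) and 5 higher (13.9%), but single old cells held 99.4% of the counts of *Mki67*, 99.7% of *Top2a* and 98.7% of *Rrm2*. In OPr 3 of 9 were lower and 3 higher, beside the shares of all genes given above.

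For each gene, the 3 genes with the most similar level over the 12 groups were named by Pearson correlation on log2 CPM, among 12323 genes. *Meg3* was most like *Col8a2* (0.969), *Rian* (0.962) and *Cyp3a13* (0.959), so a neighbour at its own locus was among the 3. *Peg3* was most like *Col24a1* (0.953), *Col11a1* (0.953) and *Klrg2* (0.938), of which *Col24a1* and *Col11a1* are fibrillar collagen genes. *Plagl1* was most like *Shisa4* (0.945), *Fndc3b* (0.932) and *Golt1b* (0.909), and *Ndn* most like *Htra3* (0.925), *Zfp703* (0.921) and *Sspn* (0.915). *Mest* was most like *Dad1* (0.943), *Dnmbp* (0.886) and *Snd1* (0.863), and *Cdkn1c* most like *Gm5778* (0.875), *Agbl5* (0.874) and *Fiz1* (0.862). *Grb10* was most like *Cenpp* (0.903), *Phlpp2* (0.896) and *Mon2* (0.855), though its levels differ little between groups. *H19* was most like *Utp14b* (0.947), *Srfbp1* (0.854) and *Sec23b* (0.838) and *Dlk1* most like *Rap2b* (0.916), *Mfge8* (0.895) and *Prim1* (0.893), and both rest on few cells. The groups share gates and library ranges, and no test was made.

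Promoter windows of 250 bases before to 50 bases after the gene start were read for 7 of the 9 genes from RefSeq (GRCm38.p6), and no entry was matched for *H19* and *Cdkn1c*. Motifs were searched on both strands: TGCCGC, the hexamer bound by ZFP57, a protein that keeps methylation at imprinting control regions, and GGGGCCCC, a core bound by PLAGL1. Neither contains the other. TGCCGC was in 11.6% and GGGGCCCC in 1.08% of all 32851 windows. The hexamer was found in windows of *Meg3*, *Plagl1*, *Grb10* and *Mest*, and the core in that of *Peg3*. The windows of *Dlk1* and *Ndn* held neither. The *Grb10* window at chr11:12037371-12037670 had 45 CpG, more than 98.1% of all windows, whose median was 7. The other *Grb10* window had 9 CpG and no match. The windows of *Plagl1* and *Peg3* had 26 and 13 CpG, and those of *Meg3* 13 with a match and 1 without. *Mest* had windows of 17 CpG with matches and 1 of 8 without. A match is a description of the letters only.

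The windows of *Meg3*, *Peg3*, *Mest* and *Plagl1* are printed because these genes were at least 2-fold lower in old OPr and had matches. Of 2 overlapping *Mest* windows with the same matches, the first is printed. Each is written 5′ to 3′ on the strand of the gene, and capitals mark the matched motif.
Meg3, chr12:109540746-109541045, plus strand: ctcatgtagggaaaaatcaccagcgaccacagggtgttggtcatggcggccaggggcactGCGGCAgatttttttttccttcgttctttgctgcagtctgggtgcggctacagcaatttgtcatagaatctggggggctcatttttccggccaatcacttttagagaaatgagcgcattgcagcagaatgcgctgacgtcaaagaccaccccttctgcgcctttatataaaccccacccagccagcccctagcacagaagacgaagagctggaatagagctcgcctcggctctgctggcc
Peg3, chr7:6730370-6730669, minus strand: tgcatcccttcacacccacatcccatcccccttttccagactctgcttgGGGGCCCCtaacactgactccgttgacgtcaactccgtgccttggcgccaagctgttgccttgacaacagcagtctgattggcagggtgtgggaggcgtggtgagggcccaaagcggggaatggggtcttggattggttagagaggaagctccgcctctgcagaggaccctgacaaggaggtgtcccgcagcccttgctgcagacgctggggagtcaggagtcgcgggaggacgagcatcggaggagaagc
Mest, chr6:30737800-30738099, plus strand: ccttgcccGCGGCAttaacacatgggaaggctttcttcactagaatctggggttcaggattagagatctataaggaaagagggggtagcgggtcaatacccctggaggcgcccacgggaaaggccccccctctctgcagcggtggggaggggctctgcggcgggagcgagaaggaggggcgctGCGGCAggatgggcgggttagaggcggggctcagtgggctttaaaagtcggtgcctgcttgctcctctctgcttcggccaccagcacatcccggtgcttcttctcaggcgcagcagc
Plagl1, chr10:13090582-13090881, plus strand: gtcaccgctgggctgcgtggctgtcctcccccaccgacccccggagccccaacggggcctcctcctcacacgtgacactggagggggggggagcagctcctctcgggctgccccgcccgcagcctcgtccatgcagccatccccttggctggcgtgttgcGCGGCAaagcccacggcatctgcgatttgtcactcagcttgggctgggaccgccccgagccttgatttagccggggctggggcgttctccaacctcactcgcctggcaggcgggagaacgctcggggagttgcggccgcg
The capitals in *Meg3*, *Mest* and *Plagl1* are the reverse complement of the hexamer, and those in *Peg3* are the core.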

How the data were processed

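The authors used GSNAP for alignment (GRCm38.p4, Ensembl release 81) and counted reads per gene with HTSeq without using strand; the deposited values are raw counts per gene and cell, after removal of cells of low depth or high mitochondrial share. All 46078 entries and 661 cells were used. Entries of one symbol were summed, *Dlk1* and *Meg3* each having a second entry without counts. CPM used nuclear counts, without 37 mitochondrial genes. Sums per age and sort gate were compared as log2((CPM + 1)/(CPM + 1)), called past 2-fold, with exact intervals from scipy 1.17.1, using pandas 2.3.3, numpy 2.4.6 and, for plots, matplotlib 3.10.9 under Python 3.11.15. The fold step was tested on simulated data. Exon lengths and overlaps came from GENCODE M21 (GRCm38), whose gene models differ from those counted. Genes named are the 9, listed neighbours and partners, and the 3 most similar genes of each among genes with at least 1000 counts and 10 CPM in 5% of cells. The genes and lists were chosen with earlier results of these data known. One marker result was left out because it needs an item withheld for evaluation. Alternatives covered scaling, depth, filters, library ranges, clusters and leaving out cells.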

Additional observations from a re-analysis of the deposited data

Results flagged for a closer look

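*Mest* differed between ages in opposite directions in SEC and in OPr. The log2 ratio of old over young was 1.27 in SEC (118.5 CPM young, 287 CPM old) and -5.63 in OPr (50.8 CPM young, 0.0468 CPM old). In OPr the direction was the same in the first and the second library range. SEC came from 1 range, and in OPr the old cells held 1 count, a ratio of counts with an interval of -15.39 to -7.60 on the log2 scale. In mOPr, the other osteoprogenitor gate, the ratio was 2.13 (11.6 CPM young, 54.1 CPM old), the direction of SEC, but -1.92 in the first library range, and 1 old cell held 86.5% of the counts. In the OPr-like clusters the ratio was -0.66, within 2-fold. Each population was 1 sample at each age, and the difference between them was not tested. Chondrocyte and MSC-L markers differed between young and old OPr, arterial and hematopoietic markers between young and old SEC, and their part in the difference was not tested.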

How the results depend on the processing

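Of the log2 ratios past 2-fold, recomputed under each alternative, 230 stayed past 2-fold in the same direction, 31 were within 2-fold and 15 turned. The 230 include 20 without the filter and 20 with a pseudocount of 0.1 CPM, whose outcome was fixed in advance. Of the counts of genes past 2-fold, 108 lay within 1.5 times the reported count and 36 did not; the causes were not tested. With no filter on low genes, the counts were 1 higher (reported 0) in MSC-S and 1 higher (reported 0) in AEC. In the first library range alone, the counts were 1 lower (reported 0) in MSC-S, 0 higher (reported 2) in mOPr, 4 lower (reported 2) in mOPr, 4 lower (reported 7) in OPr, 1 higher (reported 0) in MSC-L, 1 lower (reported 3) in MSC-L, 2 higher (reported 0) in AEC, 1 lower (reported 2) in AEC, 0 lower (reported 1) in mesenchymal over endothelial cells of young mice, 3 higher (reported 1) in MSC-S over MSC-L of young mice, 1 lower (reported 2) in MSC-S over MSC-L of young mice, 0 lower (reported 1) in mesenchymal over endothelial cells of old mice and 1 lower (reported 2) in MSC-S over MSC-L of old mice, and the log2 ratio turned to -1.92 for *Mest* in mOPr, -0.34 for *Cdkn1c* in mOPr, 3.13 for *Mest* in MSC-L, 0.29 for *Mest* in mesenchymal over endothelial cells of young mice, 1.36 for *Mest* in MSC-S over MSC-L of young mice, 0.66 for *Cdkn1c* in MSC-S over MSC-L of young mice, -0.51 for *Peg3* in mesenchymal over endothelial cells of old mice and 1.56 for *Mest* in mesenchymal over endothelial cells of old mice. With the authors' clusters in place of gates, the counts were 2 lower (reported 0) in MSC-S, 1 higher (reported 0) in OPr, 3 lower (reported 7) in OPr, 1 lower (reported 3) in MSC-L and 1 lower (reported 3) in SEC, and the log2 ratio turned to 2.95 for *H19* in OPr and 1.22 for *Plagl1* in SEC. Without the highest cell of each age, the counts were 1 lower (reported 0) in MSC-S, 1 higher (reported 2) in mOPr and 1 lower (reported 2) in AEC. Without MSC-L-like cells and cells with hematopoietic markers, chosen after seeing the data, the counts were 1 lower (reported 2) in mOPr. With the mean of each cell's CPM, the counts were 1 higher (reported 0) in AEC, 2 higher (reported 1) in MSC-S over MSC-L of young mice and 1 lower (reported 2) in MSC-S over MSC-L of old mice. With cells thinned to 100000 nuclear counts, the counts were 1 higher (reported 0) in AEC and 1 lower (reported 3) in SEC. In the second range alone, the counts were 5 lower (reported 2) in AEC, 0 lower (reported 1) in mesenchymal over endothelial cells of young mice and 0 lower (reported 1) in mesenchymal over endothelial cells of old mice, and the log2 ratio turned to 0.34 for *Mest* in mesenchymal over endothelial cells of young mice and 1.48 for *Mest* in mesenchymal over endothelial cells of old mice. In the third range alone, the counts were 3 higher (reported 0) in AEC and 1 lower (reported 2) in AEC. Without endothelial cells with mesenchymal markers, the counts were 1 lower (reported 3) in SEC, and the log2 ratio turned to 0.90 for *Plagl1* in SEC. Without the third range, the counts were 0 lower (reported 1) in mesenchymal over endothelial cells of young mice, and the log2 ratio turned to 0.30 for *Mest* in mesenchymal over endothelial cells of young mice and 1.39 for *Mest* in mesenchymal over endothelial cells of old mice. Median-of-ratios size factors turned no direction. Leaving out the filter changes no ratio, and a pseudocount of 0.1 CPM cannot turn one, so neither setting checks a direction. The size factors moved the median log2 ratio of all genes by -0.16 in OPr and -0.13 in mOPr, and by less than 0.1 in the other 4 populations; the ratios of the genes studied moved with it. With at least 1 count after thinning as the threshold, 107 shares of cells stayed within their interval and 1 did not; with at least 1 count and no thinning, 78 did and 30 did not. For *H19* in MSC-S over MSC-L of old mice, the first range gave no value, both sides having 0 counts. No paired analysis was possible because the results come from no test.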

Other observations

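Several imprinted genes of other loci had patterns of their own. *Tfpi2*, a protease inhibitor gene, was at 68.65 CPM in young and 3.13 CPM in old AEC and at 46.1 and 12.9 CPM in young and old SEC. *Sgce*, which encodes epsilon-sarcoglycan, was at 87.1 CPM in young and 328 CPM in old mOPr and at 32.7 and 9.17 CPM in young and old SEC. *Peg13*, a noncoding RNA, was at 110.5 and 129 CPM in young and old SEC and at 12.8 and 38.2 CPM in young and old MSC-S.

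Single cells held most of the counts in several groups, above all *H19* in old mOPr. No spread between mice was measured, and parental origin was not measured. Exons of *Mest* and *Copg2*, of *Cdkn1c* and *Gm44732*, and of *Igf2* and *Gm49394* or *Igf2os* overlap in the later annotation. How unstranded reads were counted there is not stated. In the osteoprogenitor gates, a change within cells and a change in which cells were sorted cannot be told apart. Lengths come from a later annotation than the one counted.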
